A study of Mus musculus with 6 samples.

Results

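The genes described here are Rn45s, the precursor of the ribosomal RNAs, with 4 subunits of RNA polymerase I (Polr1a, Polr1b, Polr1c and Polr1e), 2 factors of that polymerase (Ubtf and Rrn3) and 3 nucleolar proteins (Ncl, Npm1 and Fbl). They were picked by gene symbol, and all 10 were found among the 24421 genes of the table of raw counts. Rn45s was picked because it differed between the groups, so its values are given as a description with no test. The 9 protein-coding genes were picked for their roles, to ask whether the Rn45s difference had company. Their choice, and that of the gene lists below, was made with earlier results of these data known. All 10 passed the filter on low counts, which left 12820 genes. Levels throughout are of RNA, and protein was not measured.

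The RNA came from Neuro2a, a mouse neuroblastoma line labelled as mouse brain tumor cells of WT genotype, 48 h after an adenovirus had delivered a short hairpin RNA. In 3 libraries the virus was ADV-shCtrl, which carries a control hairpin, and in 3 it was ADV-shFam172a, which carries a hairpin against Fam172a. Every library therefore came from virus-treated cells, and no untreated cells were analysed here. One hairpin name stands for each virus, and the labels do not tell if replicates were separate cultures. The p-values thus cover the spread among these samples alone, and that spread may be technical.

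Ribosomes are built in the nucleolus. RNA polymerase I (Pol I) reads the repeated ribosomal DNA genes into one long precursor, which nucleolar proteins and small nucleolar RNAs (snoRNAs) then modify, cut and pack with ribosomal proteins. UBF, the product of Ubtf, coats active ribosomal DNA, and the product of Rrn3, called TIF-IA, joins the polymerase to the promoter and is a known point of control by growth signals. The precursor is short-lived and is not polyadenylated like messenger RNA, so its share of a library also depends on how the library was made. The labels name the library kit but not whether polyadenylated RNA was selected or ribosomal RNA removed.

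Fam172a, the targeted gene, was at 18.6, 19.3 and 19.5 CPM (counts per 1000000 counts in genes, with TMM scaling) in shCtrl and at 9.22, 8.28 and 9.22 CPM in shFam172a, so the libraries match their labels. Gene counts per library summed to 11250312 to 12820531 in shCtrl and to 21690467 to 23409319 in shFam172a, so depth goes with the group. The 12 neuroblastoma markers summed to 2041 to 2062 CPM in shCtrl and to 2119 to 2165 CPM in shFam172a. Of the 11 tested, 6 were called higher and 1 lower by the test described below, beside 17.5% and 18.6% of all tested genes. Summed markers of fibroblasts (7 genes) reached at most 6.85 CPM, of macrophages (6 genes) 1.25 CPM, of glia (6 genes) 26.5 CPM and of endothelium and epithelium (7 genes) 17.0 CPM in any library, and Ptprc and Aqp4 had no count. Macrophage markers were at 0.234 to 0.943 CPM in shCtrl and 1.17 to 1.25 CPM in shFam172a, and their part in the results was not tested.

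Rn45s was about 2-fold higher in shFam172a than in shCtrl. Its raw counts were 5851, 5259 and 6380 in shCtrl and 22028, 26594 and 17633 in shFam172a, where depth was greater. Scaled for depth, shCtrl held 502, 410 and 565 CPM and shFam172a held 1021, 1141 and 793 CPM. The lowest shFam172a library, replicate 3, lay above the highest shCtrl library, replicate 3, and the groups did not overlap. The means were 492 ± 78.2 CPM and 985 ± 177 CPM (SD, n = 3 each), a ratio of 2.0. Rn45s made up 0.0493% of gene counts in shCtrl and 0.0981% in shFam172a, so it took up little of either library. In such bulk samples a change in the number of cells of a kind and a change in the RNA per cell cannot be told apart. Neither the gene annotation nor the RefSeq tables used here hold an entry under the symbol Rn45s, so it is given without coordinates or sequence.

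Replicates differed more for Rn45s than for nearly all other abundant genes. Its coefficient of variation (SD over mean) was 15.9% in shCtrl and 17.9% in shFam172a. Among the 2655 tested genes with a mean of at least 100 CPM, the median was 2.56% and 2.19%. Counting Rn45s itself, 4 of these genes reached its variation in shCtrl and 1, Rn45s alone, in shFam172a. Of the 12820 tested genes, 108 had a ratio of means at least as large, and 16 of these had at least 100 CPM. Both counts include Rn45s itself.

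**Figure D1:**
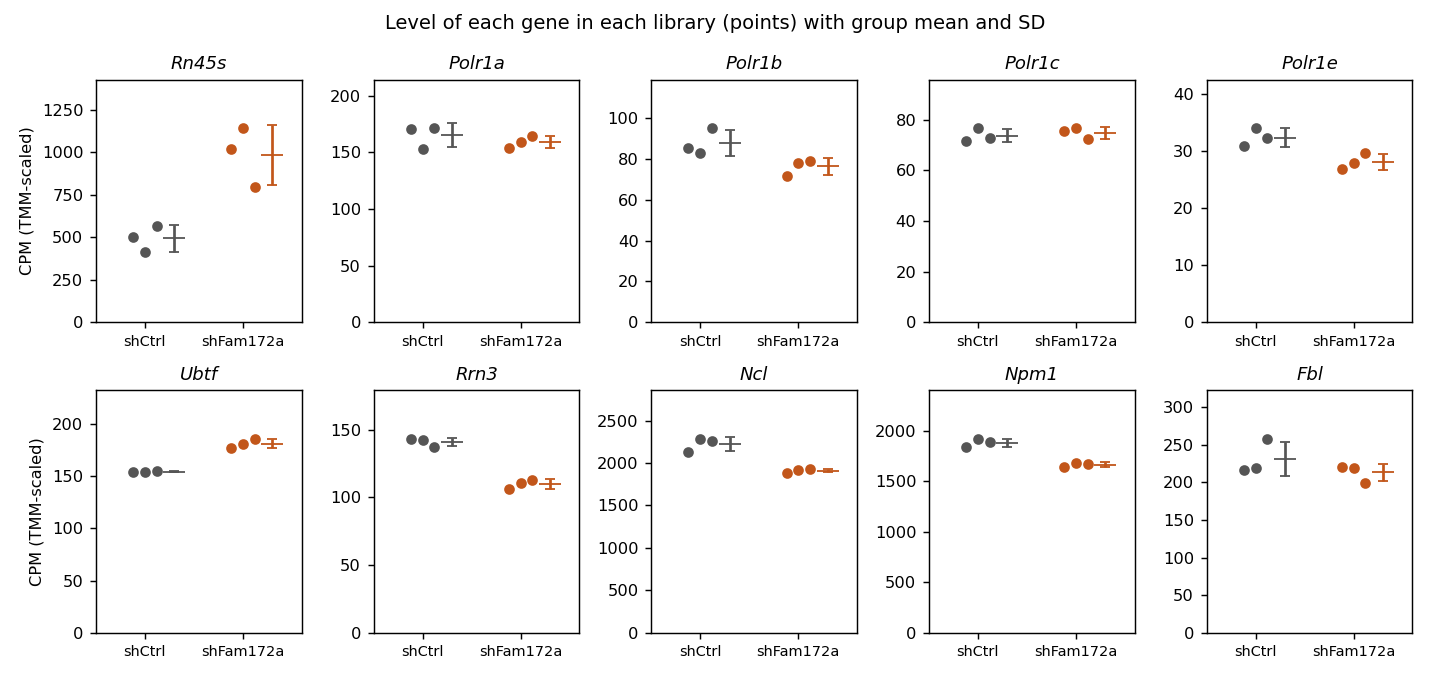
CPM after TMM scaling (vertical axis, from 0) of each gene in the 3 shCtrl and 3 shFam172a libraries (points, in the order of replicates 1 to 3), with the group mean and SD beside them. Rn45s lies at 410 to 565 CPM in shCtrl and 793 to 1141 CPM in shFam172a, Ubtf is higher in all 3 shFam172a libraries, and Rrn3, Ncl, Npm1, Polr1b and Polr1e are lower in all 3.

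Some shares of read pairs that fell outside the gene rows also differed between the groups. Pairs in no gene made up 16.5%, 16.6% and 16.4% of all pairs in shCtrl. In shFam172a they made up 17.2%, 17.2% and 17.9%, highest in replicate 3, where Rn45s was lowest of that group. Pairs with several alignments made up 9.64%, 9.71% and 9.58% of all pairs in shCtrl and 10.4%, 10.4% and 9.99% in shFam172a. Ribosomal DNA is repeated in the genome, so part of its reads can fall in this class, and the Rn45s row holds only what was assigned to it. The share of pairs set aside for low alignment quality was 4.83%, 5.14% and 5.83% in shCtrl and 6.65%, 7.12% and 4.46% in shFam172a. In shFam172a this class put replicate 2 highest and replicate 3 lowest, as Rn45s did, although shFam172a replicate 3 was also below all 3 shCtrl libraries. In shCtrl both were highest in replicate 3, but this class was lowest in replicate 1 and Rn45s in replicate 2. Per 1000 such low-quality pairs, Rn45s had 6.92, 5.26 and 6.37 pairs in shCtrl and 9.61, 9.96 and 11.5 in shFam172a, a ratio of means of 1.68. Per 1000 pairs with several alignments the means were 3.38 ± 0.549 and 6.04 ± 0.845, a ratio of 1.79. On these denominators Rn45s was higher in all 3 shFam172a libraries. It was picked for its difference in the same counts, so this adds no support. The part of library making in the Rn45s difference was not tested.

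**Figure D2:**
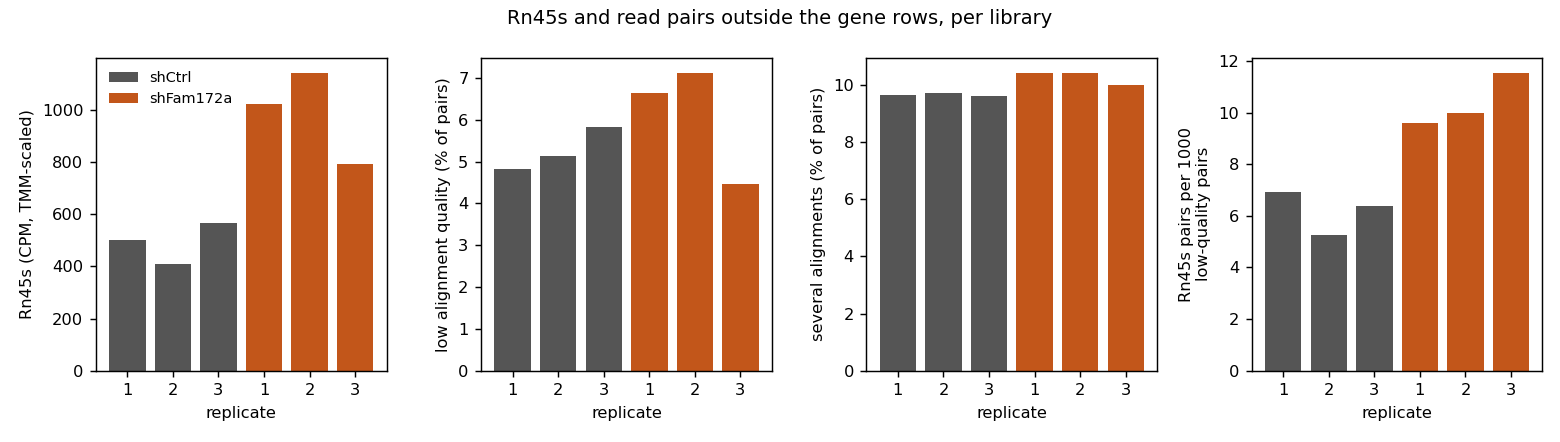
Bars for each library (replicates 1 to 3 of shCtrl in grey, of shFam172a in orange) give Rn45s in CPM, pairs of low alignment quality and pairs with several alignments as a percent of all pairs, and Rn45s pairs per 1000 low-quality pairs, all from 0. Replicate 3 of shFam172a has the lowest share of low-quality pairs (4.46%) and the highest Rn45s per 1000 of them (11.5).

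Other structural RNAs gave little to set beside Rn45s. Of 25 symbols listed, 7 were rows of the table, none passed the filter, and no library held more than 11 counts of any of them, that maximum being Terc, the telomerase RNA. Rmrp, an RNA that takes part in cutting the ribosomal RNA precursor, had 3, 3 and 5 counts in shCtrl and 5, 3 and 3 in shFam172a. SnoRNAs and the related scaRNAs, which guide chemical marks onto ribosomal and spliceosomal RNA, summed to 65.0 ± 3.68 CPM in shCtrl and 65.9 ± 1.13 CPM in shFam172a over 119 symbols. Of the 30 tested, 1 was called higher and 2 lower, beside 17.5% and 18.6% of all tested genes. Called means a Benjamini-Hochberg adjusted p under 0.05 in edgeR's quasi-likelihood test over all 12820 genes. The called snoRNAs were Snord64 (log2 fold change 0.54), Snord43 (-1.21) and Snora7a (-0.72), named after their values were seen, with adjusted p of 0.033, 0.0034 and 0.049. At 0.515 to 3.69 CPM they are low, and the call was lost for Snord64 without shCtrl replicate 1 or 3 or shFam172a replicate 2 or 3 (0.44 to 0.57, adjusted p 0.055 to 0.14), and for Snora7a without any one library other than shFam172a replicate 3 (-0.82 to -0.53, adjusted p 0.052 to 0.27). The Snord64 call was also lost with length and GC offsets (0.44, adjusted p = 0.096) and DESeq2 (0.55, adjusted p = 0.10), and that of Snora7a with no filter (-0.71, adjusted p = 0.057), on thinned counts (-0.68, adjusted p = 0.14) and with DESeq2 (-0.71, adjusted p = 0.13). The summed snoRNAs therefore lay within 1.41% of each other in the group means while Rn45s differed 2.0-fold. Snord96a alone gave 15.3 CPM (shCtrl) and 15.7 CPM (shFam172a) of these summed means.

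Of all 12820 genes tested, 36.1% were called, 17.5% higher and 18.6% lower in shFam172a. Of the 9 protein-coding genes, 1 was called higher (Ubtf), 5 lower (Polr1b, Polr1e, Rrn3, Ncl and Npm1) and 3 were not called (Polr1a, Polr1c and Fbl). None of them moved by as much as Rn45s: their ratios of means ran from 0.780 for Rrn3 to 1.17 for Ubtf. Groups did not overlap for the 6 called genes and overlapped for the 3 others, where 46.0% of all tested genes did not overlap.

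The 4 Pol I subunits did not share one change. Polr1a, the catalytic largest subunit (chr6:71909053-71984935, plus strand in GRCm38, as are all coordinates here; exons overlap Gm26628 on the other strand), was at 171, 153 and 171 CPM in shCtrl and 154, 159 and 165 CPM in shFam172a. Its log2 fold change was -0.05 ± 0.037 (SE; 95% interval -0.13 to 0.02, adjusted p = 0.30). The groups overlapped, with shCtrl replicate 2 at the bottom of all 6. Without that library Polr1a was at -0.10 with adjusted p = 0.041, and with offsets for transcript length and GC content at -0.16 with adjusted p = 2.0e-04, so whether it passed the threshold depended on these choices.

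Polr1b, the second largest subunit (chr2:129100995-129126594, plus strand), which forms the active site with Polr1a, was at 85.4, 83.2 and 95.2 CPM in shCtrl and 71.7, 78.3 and 79.1 CPM in shFam172a. All 3 shFam172a libraries lay under all shCtrl libraries, and the log2 fold change was -0.20 ± 0.047 (adjusted p = 8.5e-04). Polr1e (chr4:45018583-45036565, plus strand), the product of which is the PAF53 subunit that helps the polymerase meet its initiation factors, was at 30.8, 34.0 and 32.2 CPM in shCtrl and 26.8, 27.8 and 29.6 CPM in shFam172a. It fell by 0.21 ± 0.064 on the log2 scale (adjusted p = 0.011). The call of Polr1e was lost without shCtrl replicate 2 (-0.17, adjusted p = 0.097), without shFam172a replicate 1 (-0.17, adjusted p = 0.052) and when counts were thinned to the smallest library (-0.19, adjusted p = 0.060).

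Polr1c (chr17:46243920-46248054, minus strand), a subunit that Pol I shares with RNA polymerase III (Pol III), was at 71.7, 76.6 and 72.6 CPM in shCtrl and 75.4, 76.6 and 72.2 CPM in shFam172a. The groups overlapped fully, and the log2 fold change was 0.02 ± 0.044, with a 95% interval from -0.07 to 0.11 (adjusted p = 0.75). Values per kilobase, here and below, divide by the length of the longest annotated protein-coding transcript. Which transcripts the cells used was not tested, so orders between genes depend on this choice. On this scale Polr1c was the highest of the 4 in shCtrl, at 56.0 ± 1.97 CPM per kb. Polr1b followed at 22.0 ± 1.59, Polr1a at 17.9 ± 1.12 and Polr1e at 10.8 ± 0.533 CPM per kb. No neighbours in this order overlapped in any shCtrl library, and the order was the same in shFam172a, at 56.9 ± 1.75, 19.1 ± 1.02, 17.3 ± 0.605 and 9.40 ± 0.482 CPM per kb, where Polr1a and Polr1b came closest (highest library of Polr1a 17.87, lowest of Polr1b 17.93).

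Both Pol I factors changed, in opposite directions. Ubtf (chr11:102304560-102319742, minus strand) was at 154, 154 and 155 CPM in shCtrl and 177, 181 and 186 CPM in shFam172a. The shCtrl libraries differed by little more than 1 CPM, and each shFam172a library lay over 20 CPM above them. Ubtf rose by 17.3%, a log2 fold change of 0.23 ± 0.033 (adjusted p = 4.9e-07). Rrn3 (chr16:13780708-13814839, plus strand) was at 143, 142 and 137 CPM in shCtrl and 106, 111 and 113 CPM in shFam172a. This was the largest fall among the 9 genes, at -22.0% or a log2 fold change of -0.36 ± 0.036 (adjusted p = 3.7e-10). Per kilobase the order of the pair in shCtrl was Rrn3 (39.3 ± 0.908 CPM per kb) over Ubtf (32.9 ± 0.120), and in shFam172a Ubtf (38.6 ± 0.946) over Rrn3 (30.6 ± 0.970), with no overlap in either group. Both calls were the same under all 14 other settings tried, with log2 fold changes of 0.17 to 0.25 for Ubtf and -0.38 to -0.33 for Rrn3.

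The upstream sequence of Rrn3 is shown because Rrn3 fell most and because it alone, of the 7 genes with a RefSeq promoter window, holds the letters CACGTG, the E-box that MYC and related factors are known to bind. The upstream sequence of Ncl, which also fell, is shown for comparison and lacks it. Both are the 250 bases before the RefSeq gene start in build GRCm38.p6, written 5′ to 3′ on the gene's strand, with CACGTG in capitals. Rrn3 lies on chromosome 16, plus strand (chr16:13780449-13780698), and Ncl on chromosome 1, minus strand (chr1:86359456-86359705).
Rrn3: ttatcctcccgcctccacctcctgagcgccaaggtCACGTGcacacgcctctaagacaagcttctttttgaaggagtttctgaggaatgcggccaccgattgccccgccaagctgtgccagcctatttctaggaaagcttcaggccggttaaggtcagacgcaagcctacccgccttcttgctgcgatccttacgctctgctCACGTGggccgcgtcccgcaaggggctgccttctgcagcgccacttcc
Ncl: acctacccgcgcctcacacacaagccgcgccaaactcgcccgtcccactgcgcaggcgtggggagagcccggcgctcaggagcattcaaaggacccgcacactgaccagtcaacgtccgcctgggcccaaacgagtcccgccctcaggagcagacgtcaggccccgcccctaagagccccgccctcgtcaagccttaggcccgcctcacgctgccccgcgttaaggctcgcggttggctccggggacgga
The first letters of the 2 Rrn3 matches lie 215 and 48 bases before the start. CACGTG reads the same on both strands, and 7.15% of all 32851 RefSeq windows of 300 bases (250 before the start and 50 after) hold it. Of tested genes with a window, 11.6% hold it in at least 1 window, and 12.5% of those called lower do. No window for Rn45s, Npm1 or Fbl was used here, and Ubtf has 6 windows, none with a match. A match describes letters in a window and shows nothing about a bound factor.

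Of the 3 genes for nucleolar proteins, Ncl and Npm1 fell. Ncl (nucleolin, chr1:86344719-86359400, minus strand, an RNA-binding protein of precursor processing and ribosomal DNA chromatin) was at 2131, 2284 and 2256 CPM in shCtrl and 1888, 1914 and 1930 CPM in shFam172a. Its log2 fold change was -0.22 ± 0.026 (adjusted p = 1.1e-08). Npm1 (nucleophosmin, chr11:33152287-33163206, minus strand, a histone and ribosome assembly chaperone) was at 1842, 1921 and 1888 CPM in shCtrl and 1641, 1684 and 1673 CPM in shFam172a, a log2 fold change of -0.18 ± 0.025 (adjusted p = 3.8e-07). In neither gene did the groups overlap, and both calls were the same under all 14 other settings. Npm1 has 4 annotated pseudogenes of at least 95% identity over at least 200 bases, so its count is uncertain by the pairs that aligned in several places. Ncl shares exon sequence with Snora75, Gm24148 and mmu-mir-3535 on its own strand.

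Fbl (fibrillarin, chr7:28169710-28179269, plus strand, the enzyme that methylates ribosomal RNA at sites chosen by box C/D snoRNAs) was at 217, 219 and 258 CPM in shCtrl and 221, 219 and 200 CPM in shFam172a. The groups overlapped, and shCtrl replicate 3 stood above the other 5 libraries. The log2 fold change was -0.11 ± 0.077 (95% interval -0.30 to 0.07, adjusted p = 0.31). With no filter on low counts Fbl was at -0.11 with adjusted p = 0.016, and the cause of that difference was not tested. Fbl has 2 matches by the same identity rule, the pseudogene Gm5812 and part of Tulp4, so its count is uncertain in the same way. For the other 7 protein-coding genes no match was found. Per kilobase in shCtrl, Npm1 stood at 1153 ± 24.3, Ncl at 271 ± 9.92 and Fbl at 193 ± 19.4 CPM per kb, with no overlap between neighbours. The lengths used were 1633 bases for Npm1, 8202 for Ncl and 1197 for Fbl, and a shorter Ncl transcript would give Ncl a higher value.

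**Figure D3:**
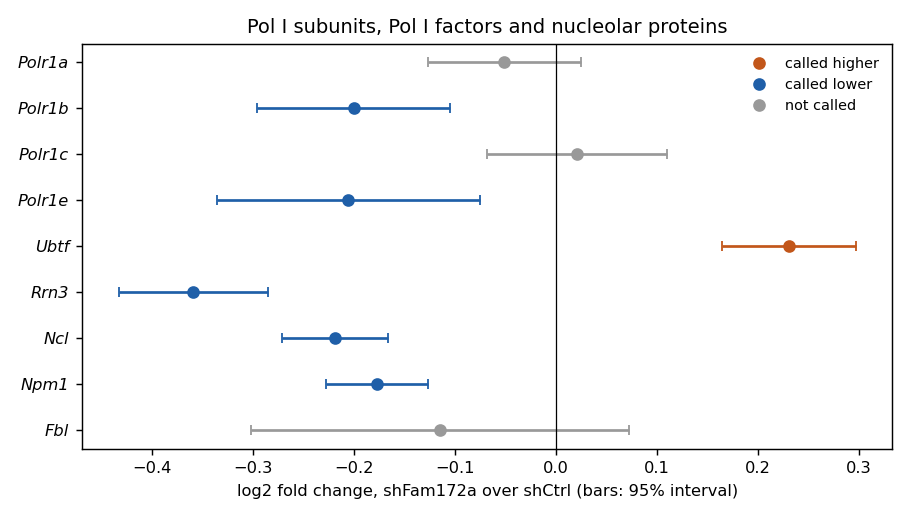
Log2 fold change of shFam172a over shCtrl (horizontal axis) with its 95% interval for the 9 protein-coding genes, coloured by call. Ubtf lies at 0.23 and Rrn3 at -0.36, and the intervals of Polr1a, Polr1c and Fbl include 0.

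The rest of the Pol I apparatus went both ways. Of 23 other subunits, initiation and silencing genes tested, 2 were called higher, 5 lower and 16 were not called, with a median log2 fold change of -0.07 beside -0.00030 over all tested genes. The 5 called lower are 21.7% of the 23, near the 18.6% of all tested genes, of which 17.5% were called higher. The median size of the change, whatever its sign, was 0.17 beside 0.13 over all tested genes. Among 9 further subunits, 2 were called lower, or 22.2% beside 18.6% of all tested genes. Twistnb, a subunit of the stalk that binds the Rrn3 product, was at 53.3, 54.7 and 48.6 CPM in shCtrl and 42.3, 42.2 and 46.2 CPM in shFam172a (-0.26 ± 0.054, adjusted p = 1.7e-04). Polr2h, shared by all 3 nuclear polymerases, was at -0.25 ± 0.086 (adjusted p = 0.020), a call lost without shCtrl replicate 2 (-0.21, adjusted p = 0.12) or 3 (-0.17, adjusted p = 0.20), with DESeq2 (-0.25, adjusted p = 0.068) and on thinned counts (-0.21, adjusted p = 0.12). Polr2h shares exon sequence with Clcn2 on the opposite strand. The shared subunits Polr1d and Polr2e were at 0.01 ± 0.052 and 0.02 ± 0.043 (adjusted p = 0.92 and 0.69).

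Among 14 genes of Pol I initiation, termination and ribosomal DNA silencing, 2 were called higher and 3 lower, with a median of -0.04. The share called, 35.7%, was near the 36.1% of all tested genes. Ptrf, which codes for a caveolar coat protein also described as a transcript release factor of Pol I, was at 20.4, 21.5 and 17.4 CPM in shCtrl and 32.2, 30.4 and 24.2 CPM in shFam172a. It was higher by 0.54 ± 0.098 (adjusted p = 1.6e-04), with no overlap and with replicate 3 lowest in each group. Kdm2a, a histone demethylase reported to act on ribosomal DNA, was at 0.36 ± 0.042 (adjusted p = 1.2e-08). Suv39h1, a histone methyltransferase of the silencing complex eNoSC, was at -0.19 ± 0.045 (adjusted p = 0.0010), and overlaps Gm14820 on the opposite strand. Taf1d hosts small RNA genes on its own strand and overlaps Cep295 on the other. Of the genes for the promoter selectivity factor, Taf1a was at -0.19 ± 0.075 (adjusted p = 0.046) and Taf1d, named after its values were seen, at -0.19 (adjusted p = 0.0019). Without shCtrl replicate 2 both calls were lost (-0.17, adjusted p = 0.16, and -0.13, adjusted p = 0.068), and that of Taf1a also without shCtrl replicate 3 (-0.15, adjusted p = 0.20) or shFam172a replicate 2 or 3 (-0.17 in each, adjusted p of 0.12 and 0.10). The Taf1a call was also lost with no filter on low counts (-0.18, adjusted p = 0.067), with length and GC offsets (-0.15, adjusted p = 0.11), with DESeq2 (-0.19, adjusted p = 0.14) and on thinned counts (-0.10, adjusted p = 0.44). Baz2a and Smarca5, of the silencing complex NoRC, were at 0.04 ± 0.031 and 0.01 ± 0.029 (adjusted p = 0.37 and 0.81). Over the 23 genes the number called lower was 2 without shCtrl replicate 2 and 8 without shCtrl replicate 1.

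Genes for the proteins that cut, modify and assemble the precursor were mostly lower in RNA. Of 121 tested, 73 were called lower, 4 higher and 44 were not called, with a median log2 fold change of -0.15. Of all tested genes, 18.6% were called lower and 17.5% higher. The falls were small: the called ones ran from -6.40% to -31.0%, and 7 were of at least 20%. By sign alone, 106 of the 121 were negative, beside 6417 of all 12820 tested genes. So were 15 of the 23 other Pol I genes and 14 of the 19 subunits of the other nuclear polymerases. The 4 called higher were Sdad1 (0.25), Mphosph6 (0.19), Ruvbl2 (0.11) and Gnl3l (0.08), named after their values were seen. Mphosph6 is an exosome partner and Ruvbl2 a helicase with roles beyond the nucleolus. Without shCtrl replicate 2 or shFam172a replicate 1 only 2 remained above the threshold, and Ruvbl2 and Gnl3l were at adjusted p = 0.15 and 0.070 in the first case and 0.053 and 0.056 in the second. Gnl3l also lost its call without shCtrl replicate 1 (0.07, adjusted p = 0.11) or shFam172a replicate 2 (0.08, adjusted p = 0.074), without TMM scaling (0.07, adjusted p = 0.060) and with length and GC offsets (0.06, adjusted p = 0.051). Ruvbl2 also lost its call with length and GC offsets (0.07, adjusted p = 0.13) and on thinned counts (0.11, adjusted p = 0.054).

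Nucleolar chaperones and scaffolds were called lower in 10 of 12, beside 18.6% of all tested genes, with a median of -0.19. Npm3, a relative of Npm1, was at 28.3, 26.7 and 26.7 CPM in shCtrl and 18.1, 19.0 and 19.3 CPM in shFam172a (-0.53 ± 0.071, adjusted p = 1.2e-07), and overlaps Gm15491 on the opposite strand. It was 31.0% lower, beside 11.5% for Npm1, a difference that was not tested, and the third family member, Npm2, was at 2.70 ± 0.473 and 2.94 ± 0.382 CPM (adjusted p = 0.65). Lyar, a nucleolar growth regulator, was at -0.37 ± 0.043 (adjusted p = 6.3e-09). Tcof1, whose product treacle links UBF to pre-ribosomal RNA processing, was at -0.28 ± 0.042 (adjusted p = 1.1e-06), and Mki67, a proliferation marker of the nucleolar rim, at -0.25 ± 0.026 (adjusted p = 8.1e-10). Gltscr2 was at 0.02 ± 0.045 (adjusted p = 0.77).

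In the snoRNP list, genes for the proteins that carry snoRNAs, 7 of 12 were called lower and 1 higher, with a median of -0.15. The shares over all tested genes were 18.6% lower and 17.5% higher. The box C/D core proteins Nop56 and Nop58, which hold Fbl on the snoRNA, were at -0.22 ± 0.031 and -0.23 ± 0.030 (adjusted p = 5.6e-07 and 1.5e-07). On the box H/ACA side, the pseudouridine synthase Dkc1 was at -0.25 ± 0.043 and its partner Gar1 at -0.30 ± 0.053 (adjusted p = 1.1e-05 and 1.7e-05). Ruvbl1 and Nop10 were not called, at -0.03 ± 0.040 and -0.11 ± 0.064 (adjusted p = 0.58 and 0.17). Dkc1 shares exon sequence with Mpp1 and Nop56 with Idh3b on the opposite strand, and the strand setting of the counting is not given in the labels, so reads of such pairs cannot be told apart.

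Small subunit genes were called lower in 21 of 39 and higher in 0, beside 18.6% and 17.5% of all tested genes, with a median of -0.13. Pno1, a late assembly factor, was at 86.9, 88.4 and 85.9 CPM in shCtrl and 59.8, 62.2 and 69.8 CPM in shFam172a (-0.45 ± 0.048, adjusted p = 1.3e-09). It shares exon sequence with Wdr92 on the opposite strand, as Rrp9 does with Parp3 and Nol11 with Gm11715. Rrp9, the U3 snoRNP protein, Nol11 and the late factor Ltv1 were at -0.29 ± 0.062, -0.27 ± 0.044 and -0.26 ± 0.037 (adjusted p = 2.9e-04, 8.9e-06 and 4.3e-07). Utp20 and Bms1, large proteins of the processome, were at -0.0033 ± 0.044 and -0.06 ± 0.033 (adjusted p = 0.96 and 0.14), and Bms1 was at -0.086 with adjusted p = 0.029 with length and GC offsets.

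Large subunit assembly genes were called lower in 29 of 43 and higher in 2, beside 18.6% and 17.5% of all tested genes. Their median was -0.16. Rpf2, which brings the 5S particle into the large subunit, was at 77.0, 70.9 and 77.8 CPM in shCtrl and 53.7, 60.9 and 56.6 CPM in shFam172a (-0.40 ± 0.049, adjusted p = 3.4e-08). Rrp15 was at -0.39 ± 0.045, Wdr12 of the PeBoW complex at -0.38 ± 0.048 and the stalk assembly factor Mrto4 at -0.37 ± 0.035 (adjusted p = 6.2e-09, 3.6e-08 and 5.5e-11). The giant remodelling ATPase Mdn1 was at -0.05 ± 0.033 (adjusted p = 0.22), and without shFam172a replicate 3 at -0.09 with adjusted p = 0.033, and with length and GC offsets at -0.21 with adjusted p = 1.1e-07. Noc2l was at -0.01 ± 0.030 (adjusted p = 0.76). Wdr12 shares exon sequence with Carf on the opposite strand.

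Genes of the RNA exosome and of rRNA trimming were called lower in 6 of 15 and higher in 1, with a median of -0.13. Over all tested genes 18.6% were called lower and 17.5% higher. The exosome subunits Exosc9, Exosc2 and Exosc1 were at -0.24 ± 0.061, -0.24 ± 0.042 and -0.24 ± 0.067 (adjusted p = 0.0018, 1.7e-05 and 0.0048), and Exosc6 at -0.22 ± 0.081 (adjusted p = 0.034). The call of Exosc1 was lost without shCtrl replicate 2 (-0.17, adjusted p = 0.10), and that of Exosc6 without shCtrl replicate 1 or 2 or shFam172a replicate 1 or 2 (-0.23 to -0.14, adjusted p 0.055 to 0.29), with DESeq2 (-0.21, adjusted p = 0.11) and on thinned counts (-0.20, adjusted p = 0.15). The helicase Skiv2l2 and the exonuclease Xrn2 were at -0.04 ± 0.032 and -0.04 ± 0.031 (adjusted p = 0.29 and 0.32). Exosc2 and Exosc9 overlap other genes on the opposite strand, and Exosc6 shares exon sequence with Aars on its own strand.

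**Figure D4:**
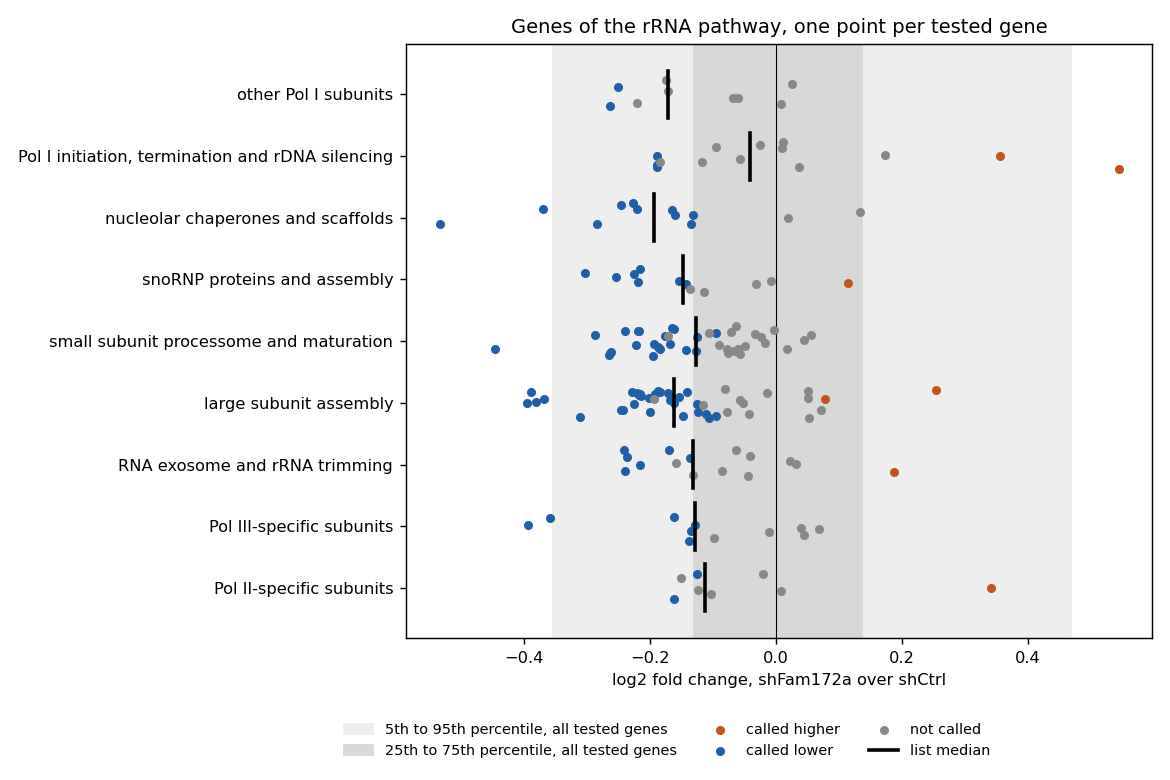
Each point is the log2 fold change (horizontal axis, shFam172a over shCtrl) of 1 tested gene in 9 lists, coloured by call, with the list median as a black line. The grey bands span the 25th to 75th (-0.13 to 0.14) and 5th to 95th (-0.36 to 0.47) percentiles of all 12820 tested genes, and the medians of the 5 processing and assembly lists lie between -0.19 and -0.13.

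Among 19 subunits of the other nuclear polymerases, 8 were called lower (42.1%, beside 18.6% of all tested genes) and 1 higher (17.5% of all tested genes), with a median of -0.12. Of the 11 Pol III subunits 6 were called lower, led by Polr3d (-0.39 ± 0.061, adjusted p = 2.2e-06) and Polr3f (-0.36 ± 0.048, adjusted p = 1.4e-07). Crcp was at -0.16 ± 0.050 and Polr3e at -0.14 ± 0.047 (adjusted p = 0.0092 and 0.019). The call of Crcp was lost without shFam172a replicate 3 (-0.12, adjusted p = 0.057) and that of Polr3e without shCtrl replicate 1 or 2 or shFam172a replicate 1 (-0.14 to -0.10, adjusted p 0.062 to 0.13) and with DESeq2 (-0.14, adjusted p = 0.070). Polr3a, the catalytic subunit, and Polr3c were at -0.01 ± 0.048 and -0.10 ± 0.050 (adjusted p = 0.89 and 0.12), and without shFam172a replicate 2 Polr3c was at -0.14 with adjusted p = 0.049. Of 8 subunits of RNA polymerase II, Polr2a (-0.12 ± 0.029, adjusted p = 6.3e-04) and Polr2m (-0.16 ± 0.040, adjusted p = 0.0013) were called lower and Polr2d (0.34 ± 0.071, adjusted p = 2.0e-04) higher. Polr2b was at -0.02 ± 0.031 and Polr2c at -0.10 ± 0.042 (adjusted p = 0.65 and 0.053), the latter at -0.13 with adjusted p = 0.034 without shFam172a replicate 2, at -0.11 with adjusted p = 0.035 without TMM scaling and at -0.15 with adjusted p = 0.0029 with length and GC offsets. Whether the Pol I genes differ from these in their change was not tested.

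The MYC genes, whose products are known activators of ribosome production, showed no shared change. Myc was at 107 ± 4.41 and 102 ± 2.69 CPM (-0.07 ± 0.039, adjusted p = 0.20). Mycn was at 41.1 ± 2.06 and 45.3 ± 1.44 CPM (0.14 ± 0.055, adjusted p = 0.039), and its call was lost without shCtrl replicate 2 or 3 or shFam172a replicate 1 or 2 (0.10 to 0.16, adjusted p 0.056 to 0.24). It was also lost without TMM scaling (0.13, adjusted p = 0.053), with length and GC offsets (0.12, adjusted p = 0.080), with DESeq2 (0.14, adjusted p = 0.11) and on thinned counts (0.12, adjusted p = 0.20). The letters CACGTG stood in a promoter window of 22 of the 96 processing and assembly genes that have one (22.9%), beside 11.6% of all tested genes with a window. Among those genes the share was 18.6% of the 59 called lower and 29.4% of the 34 not called.

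The genes whose level most resembled that of Rn45s over the 6 libraries were Pdcd4, Mettl23, Igfbp2, Zfp120 and Diras1, with Pearson correlations of 0.998, 0.996, 0.996, 0.994 and 0.993 on log2 CPM. They were picked as the top 5 of 11382 genes, 225 of which reached 0.95, and the 6 libraries form 2 groups, so each correlation mostly restates the group difference. All 5 were lowest in shCtrl replicate 2 and, within shFam172a, lowest in replicate 3 and highest in replicate 2, as Rn45s was. The 5 were picked for following Rn45s over these same libraries, so the shared order adds no support. Their differences were smaller than that of Rn45s: Pdcd4, a translation inhibitor, went from 28.1 ± 1.30 to 35.7 ± 1.97 CPM, and the ratios of means were 1.34 for Mettl23, 1.32 for Igfbp2, 1.20 for Diras1 and 1.07 for Zfp120. None of the 9 protein-coding genes described above was among the 5.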

How the data were processed

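The members and gene lists were chosen with earlier results of these data known. The authors deposited raw counts of read pairs per gene symbol for 6 libraries, in a series table and single-sample tables that hold the same counts. The submitters' processing notes list HISAT2 2.0.5, HTSeq and the build mm10. No source used here gives the annotation or strand setting.

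The 5 rows that name no gene stayed out of library sizes and tests. They held 9.64% (shCtrl) and 10.3% (shFam172a) of pairs as several alignments, 16.5% and 17.4% as in no gene, 5.26% and 6.08% as low quality, 1.81% and 1.80% as ambiguous and 0.825% and 0.991% as not aligned. Genes were filtered with filterByExpr, which left 12820 of the 18128 genes with a count, TMM-normalised, and fitted in edgeR 4.0.16 under R 4.3.3 (glmQLFit, robust, and glmQLFTest, two-sided, group as the sole term), and called where the p-value after Benjamini-Hochberg adjustment was under 0.05. The SE is the size of the log2 fold change over the square root of F, and CPM is given as mean ± SD. Counts of replicates of a group differed beyond sampling noise (chi-square per degree of freedom 1.61 to 2.84), and each library was treated as 1 sample. Such a spread can be technical and cannot show that replicates were separate cultures.

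Named list genes were up to 4 called ones with the largest change and up to 2 uncalled ones with the highest level, at a mean of at least 2 CPM, and the 5 genes most correlated with Rn45s. Transcript lengths (longest protein-coding transcript), exon overlaps and copies (blastn 2.17.0+) came from GENCODE M21 (GRCm38), where 9 of the 10 genes matched. Promoters came from RefSeq GRCm38.p6, where 7 matched. DESeq2 1.42.0, other scalings, filters, thinned counts, length and GC offsets, a replicate block and leaving out libraries were the alternatives.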

Additional observations from a re-analysis of the deposited data

How the results depend on the processing

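The 9 protein-coding genes had 1 called higher under every alternative run and 4 to 6 called lower (5 in the test as reported). With any 1 library left out, the genes called lower among them numbered 4 to 5, the processing and assembly genes called lower 60 to 75 and those called higher 2 to 4, and the other Pol I genes called lower 2 to 8. Without shCtrl replicate 1 the last count was 8, without shCtrl replicate 2 it was 2, and it was 3 with DESeq2 1.42.0 and 3 on counts thinned to the smallest library. With length and GC offsets 22 of the other 23 Pol I genes could be fitted and 1 was called higher; Ptrf, called higher in the test as reported, was not in that fit. Processing and assembly genes called lower were 65 with DESeq2 and 65 on thinned counts, with medians of -0.16 to -0.14 over all alternatives. The log2 ratio of Rn45s means (1.0) was 0.88 to 1.13 with a library left out, 0.99 without TMM, 1.0 with RLE factors and 0.93 over all pairs. Over all genes the count higher was 1725 to 2285 and the count lower 1836 to 2692.

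Samples with the same replicate number did not deviate together (correlations of -0.0054, -0.0038 and -0.0096). The labels do not say what the number stands for, and such values cannot show whether these samples shared a culture or a batch. With a replicate block 2150 genes were called higher and 2318 lower, against 2241 and 2386, and among processing and assembly genes 3 and 74. Among named genes the block ended the calls of Taf1a (-0.19, adjusted p = 0.055) and Gnl3l (0.08, adjusted p = 0.059).

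Among the named genes, the signs that turned were of uncalled ones. On thinned counts these were Polr3a (0.00042), Polr2b (0.014), Npm2 (-0.10) and Noc2l (0.0044); with length and GC offsets Polr2e (-0.015), Baz2a (-0.064) and Smarca5 (-0.0043); without TMM Polr1d (-0.00016); and with other filters Utp20 (0.0017 with none, 0.00078 at 50 counts). With a library left out, ranges that crossed 0 were -0.029 to 0.063 for Polr1d, -0.0038 to 0.063 for Polr2e, -0.00051 to 0.064 for Baz2a, -0.0078 to 0.034 for Smarca5, -0.034 to 0.0080 for Polr3a, -0.038 to 0.00074 for Polr2b, -0.0073 to 0.24 for Npm2, -0.018 to 0.050 for Gltscr2, -0.053 to 0.0018 for Ruvbl1 and -0.060 to 0.051 for Utp20. The causes were not tested.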
